A study of Rattus norvegicus with 6 samples.

Results

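The genes described here were 34 genes of the brain's vessels, grouped by role: 6 junction and adhesion proteins, 8 vascular growth factor receptors, ligands and secreted factors, 2 endothelial transcription factors, 4 efflux transporters, 6 uptake carriers, 5 pericyte genes and 3 contractile smooth muscle genes. They were found by gene symbol in the table of raw counts, and all 34 were among its 17455 genes. The table came from hippocampal RNA of 3 Fmr1 knockout (KO) rats and 3 wild-type (WT) rats, with 1 library for each rat. All were 10-week-old males on a Long Evans background, selected from crosses that gave both genotypes, and the KO rats carried the LE-Fmr1em2Mcwi allele of Fmr1, the gene for the RNA-binding protein FMRP that is silenced in fragile X syndrome. The methods give 1 litter per group for the transcriptomics, and which rats shared a litter is not stated, so a difference between litters and one between genotypes cannot be told apart.

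Brain capillaries are lined by endothelial cells that tight junctions seal to each other, so that most molecules cross only through the cell. Glucose, amino acids and other nutrients are carried in by dedicated transporters, and ATP-driven pumps on the blood side return many drugs and toxins to the blood. Pericytes sit on the capillary wall and are needed for the barrier, smooth muscle cells wrap the arterioles, and astrocyte endfeet cover the outer surface of both. Some of these genes are also expressed outside vessels. Tjp1, Abcc1, Slc2a1, Slc16a1 and Slco1c1 are found in other brain cells as well.

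The libraries held 9619812 to 13390476 counts in KO rats and 11649652 to 12874085 in WT rats. Fmr1 had 17.4, 13.1 and 11.6 CPM (counts scaled to the library size with TMM factors) in KO rats, against 47.6, 50.6 and 51.6 CPM in WT rats, a log2 fold change of -1.83 (SE 0.123, edgeR adjusted p = 5.73e-06). All log2 fold changes are KO over WT from the quasi-likelihood test of edgeR, with adjustment over the 11800 genes tested, of which 3 (0.0254%) passed an adjusted p of 0.05. WT replicate 3 stood apart from its group: on the first principal component it lay at 6.20, inside the KO range of 5.49 to 11.01, while WT replicates 1 and 2 lay at -19.6 and -12.4. KO replicate 3 stood apart on the second component, at 20.1, where the other libraries lay at -12.8 to 1.91. The 2 components held 28.8% and 21.7% of the variance. The effect of WT replicate 3 on the vessel genes is given beside them.

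All 34 vessel genes had enough counts to be tested, with 20 (Flt4) to 3310 (Tjp1) counts in a library, and 0 passed the adjusted threshold in edgeR (smallest adjusted p = 0.224). By unadjusted p (below 0.05), 5 of the 34 (14.7%) were higher in KO rats and 0 were lower, where 4.19% of all genes tested were higher and 5.15% were lower. The 5 were the efflux pumps Abcg2, Abcb1a and Abcc1, the uptake carrier Slco1a2 and the VEGF receptor Flt1. DESeq2 gave 4 of these at an unadjusted p under 0.05, without Flt1, where 2.55% of the genes with a DESeq2 p were higher. DESeq2 gave an adjusted p for 20 of the 34 and called 1 of these 20, Abcg2, higher at an adjusted p under 0.05 (adjusted p = 0.0361), where 0.0689% of all genes with an adjusted p were so called. The median log2 fold change of the 34 was 0.08, beside 0.0017 over all genes tested, and 22 of the 34 (64.7%) had a positive value, beside 50.5% of all genes. Without the 4 efflux transporters, the median of the other 30 was 0.05. Leaving out WT replicate 1 gave a median of 0.03 for the 34, leaving out WT replicate 2 gave 0.05, and leaving out WT replicate 3 gave 0.14.

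**Figure D1:**
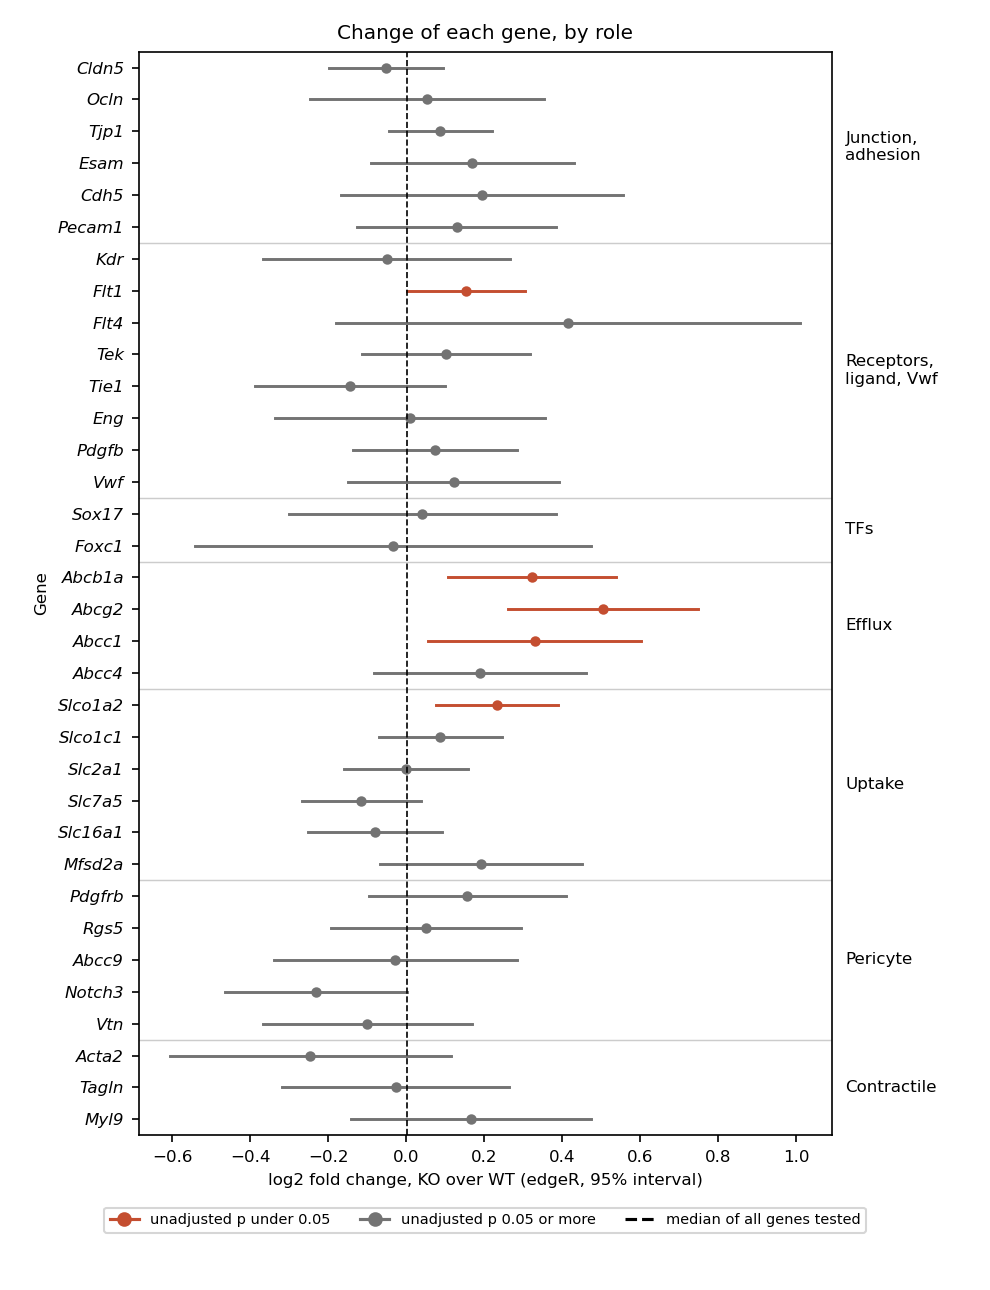
Log2 fold change (KO over WT, edgeR) of the 34 genes by role, with 95% confidence intervals. Points lie on both sides of 0 in every role except the efflux transporters, whose 4 values run from 0.19 to 0.50.

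The groups did not overlap for 4 of the 34 genes. Abcg2, Abcb1a and Slco1a2 (8.82%) were higher in every KO library than in any WT library, against 7.19% of all genes, and Acta2 (2.94%) was lower in every KO library, against 7.52% of all genes. Leaving out WT replicate 3 raised the number of vessel genes that were higher by unadjusted p to 8, with Abcc4, Myl9 and Tjp1 added, while the share over all genes was then 8.69%. Abcg2 was the 1 vessel gene that then passed the adjusted threshold (adjusted p = 0.0303), where 0.715% of all genes were so called as higher. Leaving out WT replicate 2 lowered the number at an unadjusted p under 0.05 to 3 (Abcg2, Abcb1a and Slco1a2), while the share over all genes was then 2.73%. In RNA from whole tissue, a different number of vessel cells and a different amount of RNA per cell cannot be told apart.

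The efflux transporters are ATP-driven pumps of the ABC family, and all 4 had positive log2 fold changes (median 0.33). Abcg2, the breast cancer resistance protein, had 40.4, 37.3 and 35.2 CPM in KO rats, against 29.1, 21.8 and 28.8 CPM in WT rats. Every KO library lay above every WT library, with WT replicate 2 the lowest. Its mean was 37.6 ± 2.62 CPM in KO rats and 26.6 ± 4.16 CPM in WT rats (SD, n = 3 each). The level in KO rats was 1.42-fold that in WT rats, or 0.50 on the log2 scale (SE 0.114, 95% interval 0.26 to 0.75, edgeR adjusted p = 0.224). By unadjusted p (0.000524) it ranked 27 among the genes tested, and it kept an unadjusted p under 0.05 in 10 of 10 alternative analyses, with log2 fold changes of 0.38 to 0.57 and adjusted p values of 0.0303 to 0.679.

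Abcb1a encodes P-glycoprotein, the main drug efflux pump of the rodent barrier. It had 63.6, 53.5 and 62.3 CPM in KO rats, against 49.2, 41.2 and 53.0 CPM in WT rats. The groups did not overlap, although KO replicate 2 and WT replicate 3 were nearly level. The log2 fold change was 0.32 (95% interval 0.11 to 0.54, edgeR adjusted p = 0.341), or 1.25-fold, and it was 0.23 without WT replicate 2 and 0.40 without WT replicate 3. Its near copy Abcb1b, which shares much of its sequence, had 91, 84 and 70 counts in KO rats and 86, 91 and 62 counts in WT rats, with a log2 fold change of 0.15 (SE 0.194). Reads that fit both genes may have been divided or dropped in the counting, so the split between them is uncertain.

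Abcc1, a multidrug resistance protein that exports glutathione conjugates, had 32.6, 27.5 and 23.2 CPM in KO rats, against 22.9, 19.5 and 24.1 CPM in WT rats. KO replicate 3 lay below WT replicate 3, so the groups overlapped. The log2 fold change was 0.33 (SE 0.127, unadjusted p = 0.0215, edgeR adjusted p = 0.448). The unadjusted p was 0.15 without KO replicate 1 and 0.0965 without WT replicate 2. Abcc4, which exports organic anions and cyclic nucleotides, had 16.4, 15.7 and 15.7 CPM in KO rats, against 12.1, 13.4 and 16.3 CPM in WT rats, with a log2 fold change of 0.19 (95% interval -0.08 to 0.46). WT replicate 3 was level with the KO libraries, and without it the log2 fold change was 0.32 (unadjusted p = 0.0252).

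Together the 4 pumps summed to 153, 134 and 136 CPM in KO rats, against 113, 95.9 and 122 CPM in WT rats. KO replicate 1 was the highest library for each of the 4 genes.

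Promoter windows of the 3 pumps with an unadjusted p under 0.05 in edgeR are shown, although none of the 3 passed the adjusted threshold there. Each runs from 250 bases before to 50 bases after the annotated start in RefSeq (build GRCr8), with matches to the GC box GGGCGG, on either strand and overlaps included, in capitals. Abcg2 is at chr4:89075224-89075523 (plus strand), Abcb1a at chr4:26397599-26397898 (minus strand) and Abcc1 at chr10:1162318-1162617 (minus strand).
Abcg2: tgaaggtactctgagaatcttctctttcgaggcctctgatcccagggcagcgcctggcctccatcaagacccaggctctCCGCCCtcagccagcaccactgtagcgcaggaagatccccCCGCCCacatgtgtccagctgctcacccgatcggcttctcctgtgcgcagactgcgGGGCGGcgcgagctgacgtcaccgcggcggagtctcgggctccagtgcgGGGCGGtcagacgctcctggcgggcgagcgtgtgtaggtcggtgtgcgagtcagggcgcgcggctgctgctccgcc
Abcb1a: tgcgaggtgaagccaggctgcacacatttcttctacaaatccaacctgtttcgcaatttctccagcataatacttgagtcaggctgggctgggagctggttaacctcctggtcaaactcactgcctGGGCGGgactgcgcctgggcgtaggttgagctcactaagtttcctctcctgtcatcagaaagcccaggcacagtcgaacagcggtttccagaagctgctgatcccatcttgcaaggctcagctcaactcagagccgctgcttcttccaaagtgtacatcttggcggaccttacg
Abcc1: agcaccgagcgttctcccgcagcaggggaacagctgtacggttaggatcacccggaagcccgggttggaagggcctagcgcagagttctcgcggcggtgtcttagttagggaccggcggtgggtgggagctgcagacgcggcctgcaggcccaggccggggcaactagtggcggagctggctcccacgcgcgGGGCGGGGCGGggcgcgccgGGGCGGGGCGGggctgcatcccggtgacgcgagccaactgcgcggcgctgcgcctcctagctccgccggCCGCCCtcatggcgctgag
The Abcg2 window held 4 GC boxes at 68.0% GC, the Abcb1a window 1 at 53.7% GC and the Abcc1 window 5 at 73.7% GC, where the median GC content of all promoter windows was 51.7%. A window was matched for 22 of the 34 genes, and 18 of these held a GC box, beside 33.1% of all 33469 windows. The GC box was chosen after the data were seen, so this share is a description only. The other motifs below were set beforehand. The 18 included Cldn5 and Slc2a1, with log2 fold changes of -0.05 and -0.00013. The TCF/LEF motif (CTTTGAA or CTTTGAT, both strands) was in 1 of the 22, Tjp1, and in 8.73% of all windows. The ETS motif CCGGAAGT and the CArG box of smooth muscle genes, both also searched on both strands, were in 0 of the 22, and in 3.81% and 1.64% of all windows. These are matches of letters, and binding was not measured.

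**Figure D2:**
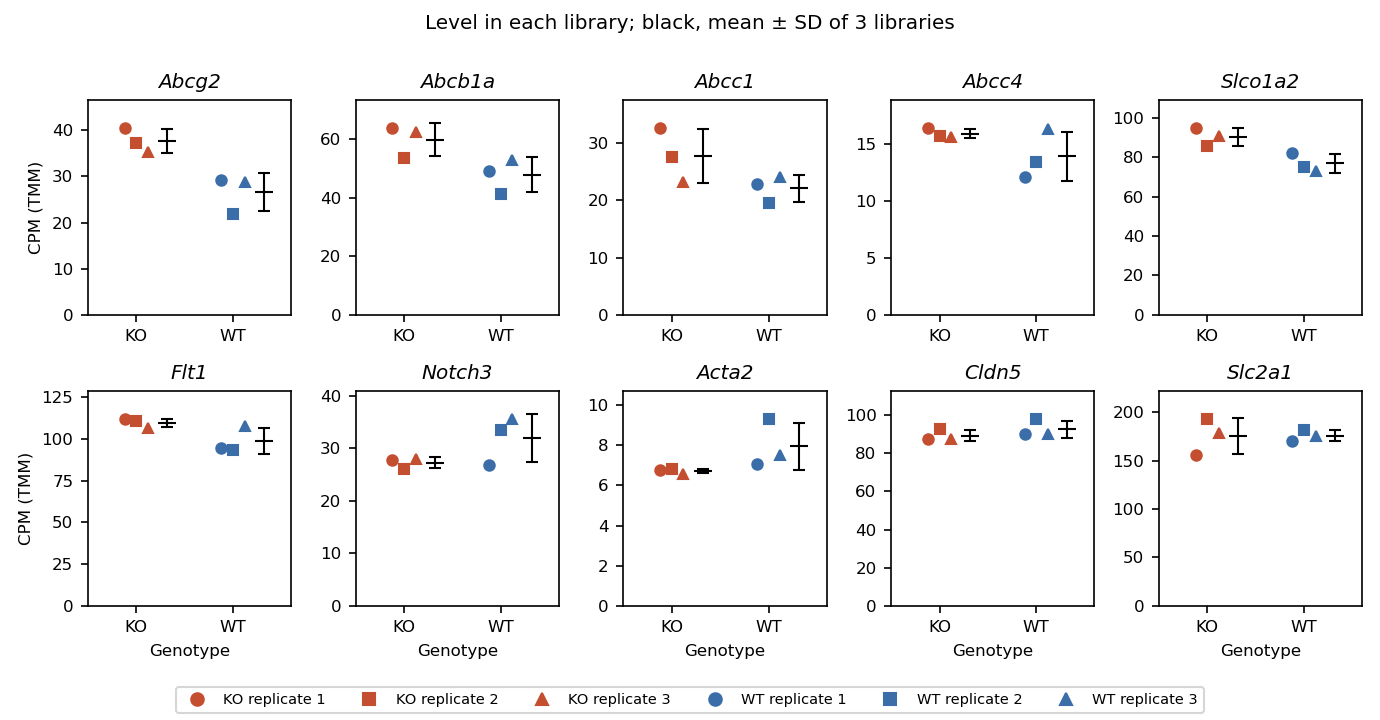
CPM in each library for 10 genes, KO left of WT, with the mean and SD of 3 libraries in black and each axis starting at 0. The KO points lie above all WT points for Abcg2, Abcb1a and Slco1a2 and below all of them for Acta2, while Cldn5 and Slc2a1 overlap.

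Among the 6 uptake carriers, 1 was higher in KO rats by unadjusted p (below 0.05) and 0 were lower (median log2 fold change 0.04). Slco1a2, an organic anion transporting polypeptide that carries bile acids, steroid conjugates and drugs, had 94.6, 85.6 and 90.5 CPM in KO rats, against 82.1, 75.1 and 73.1 CPM in WT rats. The lowest KO library lay above the highest WT library. The log2 fold change was 0.23 (SE 0.0728, 95% interval 0.08 to 0.39, edgeR adjusted p = 0.341), or 1.18-fold, and it stayed between 0.20 and 0.28 in 10 alternative analyses, each with an unadjusted p under 0.05. RefSeq holds Slco1a2 only as an older symbol, of 2 rat genes, Slco1a4 and Slco1a5, so the symbol in the table is ambiguous. Slco1a4 was not listed in the table under its own symbol. Slco1a5 was listed under its own symbol as well and had 0 to 3 counts in a library, and Slco1a1 and Slco1a6 had 0 in all.

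Slc2a1, the glucose transporter GLUT1, had 156, 193 and 179 CPM in KO rats, against 170, 182 and 176 CPM in WT rats. Both the lowest and the highest of the 6 values were KO libraries. The log2 fold change was -0.00013, with a 95% interval of -0.16 to 0.16. The thyroid hormone carrier Slco1c1 averaged 141.6 ± 10.2 CPM in KO rats and 133.1 ± 10.3 CPM in WT rats (SD, n = 3 each). Slc7a5, the light chain of the large neutral amino acid transporter, averaged 105.7 ± 1.51 CPM in KO rats and 114.4 ± 9.56 CPM in WT rats (SD, n = 3 each), with a log2 fold change of -0.11. The monocarboxylate carrier Slc16a1 had a log2 fold change of -0.08, and Mfsd2a, which takes up lysophospholipids carrying docosahexaenoic acid and restrains transcytosis, had 0.19. None of these 4 passed an unadjusted p of 0.05 (0.130 to 0.341). For Mfsd2a the log2 fold change was 0.30 without KO replicate 1 (unadjusted p = 0.0266), 0.11 without KO replicate 2 and 0.09 without WT replicate 1.

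The 6 junction and adhesion proteins had log2 fold changes of -0.05 to 0.19, and 0 passed an unadjusted p of 0.05 in either edgeR or DESeq2. Cldn5, the claudin that seals the brain endothelium, had 87.6, 92.6 and 87.4 CPM in KO rats, against 89.9, 97.7 and 90.0 CPM in WT rats. Its log2 fold change was -0.05, with a 95% interval of -0.20 to 0.09. Tjp1, the scaffold ZO-1 that ties claudins to actin, had 256, 244 and 248 CPM in KO rats, against 235, 220 and 249 CPM in WT rats. WT replicate 3 lay within the KO range, and the log2 fold change of 0.09 became 0.13 without it (unadjusted p = 0.0436).

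Occludin (Ocln), the other tight junction protein of the group, had a log2 fold change of 0.05. It was 0.17 without WT replicate 3 and -0.0075 without WT replicate 1. The endothelial adhesion molecules had positive values: 0.17 for Esam, 0.19 for Cdh5, which encodes VE-cadherin, and 0.13 for Pecam1. Their 95% intervals all included 0, the widest running from -0.17 to 0.55 for Cdh5, which had 68 to 132 counts. The 6 genes summed to 409, 401 and 403 CPM in KO rats, against 383, 378 and 401 CPM in WT rats, so that WT replicate 3 was level with the KO libraries.

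Flt1, the VEGF receptor 1 that also acts as a decoy for VEGF, was the 1 gene of the 8 receptors, ligands and secreted factors with an unadjusted p under 0.05. It had 111.6, 110.4 and 106.6 CPM in KO rats, against 94.7, 93.4 and 107.4 CPM in WT rats. WT replicate 3 lay above KO replicate 3, so the groups overlapped. The log2 fold change was 0.15 (SE 0.0709, unadjusted p = 0.0470, edgeR adjusted p = 0.528). Over the alternatives the unadjusted p ran from 0.00444 without WT replicate 3 to 0.164 without WT replicate 2, and it was 0.0647 in DESeq2.

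Kdr, the VEGF receptor 2 that carries most VEGF signalling in endothelium, averaged 10.3 ± 1.51 CPM in KO rats and 10.8 ± 1.09 CPM in WT rats (SD, n = 3 each), and its log2 fold change was -0.05, or -0.09 without WT replicate 3. Flt4, the VEGF-C receptor, had the largest log2 fold change of the group (0.41, 95% interval -0.18 to 1.01) but 20 to 35 counts in a library. The angiopoietin receptor Tek and its relative Tie1 stood at 0.10 and -0.14 on the log2 scale, and at 0.17 and -0.02 without WT replicate 3, the WT library with the highest level of both. Without WT replicate 1 they stood at 0.03 and -0.21. The TGF-beta co-receptor Eng had 0.01 (0.10 without WT replicate 3 and -0.15 without WT replicate 1). Pdgfb, the endothelial signal that recruits pericytes, had 0.07, and the clotting factor carrier Vwf had 0.12. The 95% intervals of these 7 genes all included 0. Of the transcription factors, Sox17, which acts in arterial endothelium, had 11.02, 12.3 and 10.5 CPM in KO rats, against 8.28, 12.2 and 12.4 CPM in WT rats, with WT replicate 1 below the rest. Its log2 fold change was 0.04 (95% interval -0.30 to 0.38), and that of the forkhead factor Foxc1, which is also expressed in mural cells, was -0.03 (95% interval -0.54 to 0.47). Without WT replicate 3 these values were 0.14 and 0.08, and without WT replicate 1 they were -0.12 and -0.18.

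The 5 pericyte genes had a median log2 fold change of -0.03, and 0 passed an unadjusted p of 0.05 in edgeR. Pdgfrb, the receptor by which pericytes are recruited, had 41.8, 36.2 and 33.4 CPM in KO rats, against 36.8, 27.6 and 35.7 CPM in WT rats. The groups overlapped, and the log2 fold change was 0.16 (95% interval -0.10 to 0.41). Notch3, the Notch receptor of pericytes and arteriolar smooth muscle, lay nearest the threshold among the negative values, with 27.8, 26.1 and 27.9 CPM in KO rats, against 26.8, 33.5 and 35.5 CPM in WT rats. WT replicate 1 was level with the KO libraries. The log2 fold change was -0.23 (SE 0.109, unadjusted p = 0.0516, edgeR adjusted p = 0.535), the unadjusted p was 0.00393 without WT replicate 1 and 0.0420 with no filter on low counts, and it reached 0.197 without WT replicate 3. Rgs5, a regulator of G protein signalling that marks pericytes, had a log2 fold change of 0.05, Abcc9, the sulphonylurea receptor subunit of the pericyte potassium channel, had -0.03, and the matrix protein vitronectin (Vtn) had -0.10. Without WT replicate 3 these values were 0.19, 0.07 and -0.09, and the median of the 5 was 0.07. Without WT replicate 1 they were -0.02, -0.12 and -0.19, and the median of the 5 was -0.12.

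Among the 3 contractile genes, smooth muscle actin (Acta2) had 6.76, 6.79 and 6.58 CPM in KO rats, against 7.06, 9.28 and 7.50 CPM in WT rats. The groups did not overlap, but the nearest libraries, KO replicate 2 and WT replicate 1, were close, and the log2 fold change was -0.25 (SE 0.168, 95% interval -0.61 to 0.11, unadjusted p = 0.166). Tagln, the actin-binding protein transgelin, had 18.5, 24.8 and 16.7 CPM in KO rats, against 21.7, 19.5 and 20.5 CPM in WT rats, and the WT range lay within the KO range. Myl9, a regulatory light chain of myosin, averaged 13.7 ± 1.10 CPM in KO rats and 12.2 ± 2.27 CPM in WT rats (SD, n = 3 each), and its log2 fold change of 0.17 became 0.33 without WT replicate 3 (unadjusted p = 0.0339). The sums over the role were 39.6, 46.0 and 35.7 CPM in KO rats and 39.4, 40.0 and 42.8 CPM in WT rats. For the pericyte genes they were 128.3, 115.8 and 115.2 CPM in KO rats and 112.5, 116.8 and 133.6 CPM in WT rats.

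**Figure D3:**
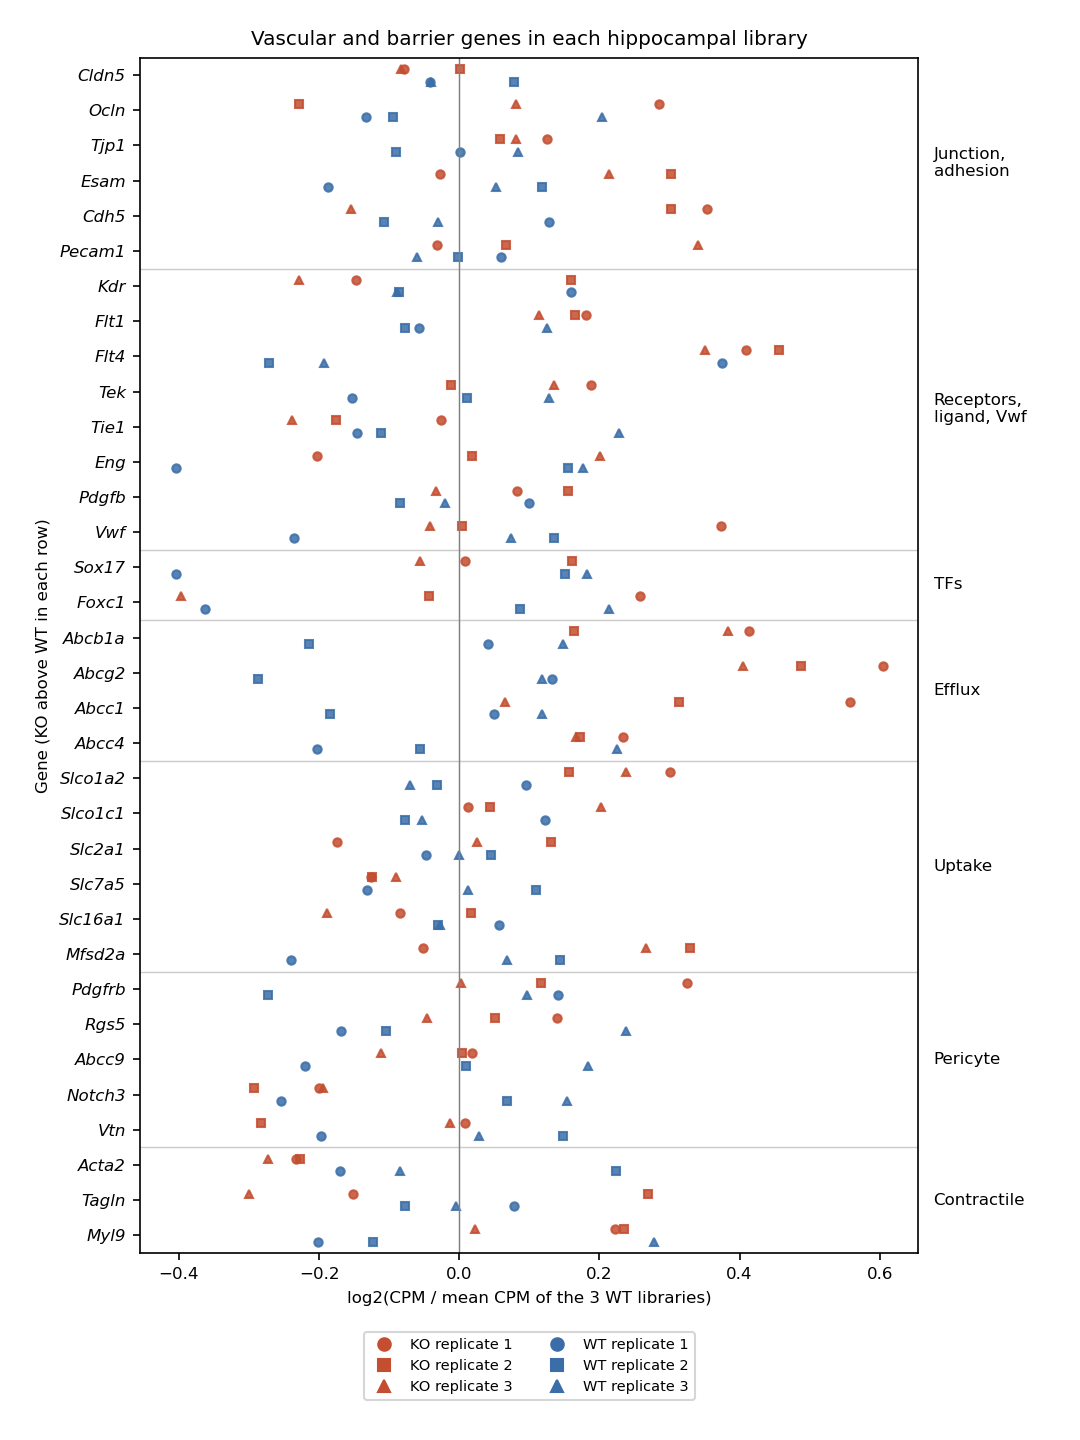
Log2 level of each of the 34 genes in each library, KO libraries above WT libraries in each row, relative to the mean of the WT libraries. Each of the 4 efflux transporters is above the WT mean in all 3 KO libraries, while the libraries of most other genes are mixed.

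The libraries differed within a genotype as well. Relative to the WT mean, the median log2 level of the 34 genes was 0.06, 0.10 and 0.02 in the KO libraries, against -0.09, -0.04 and 0.08 in the WT libraries, so that WT replicate 3 lay within the KO range. For the efflux transporters the medians were 0.49, 0.25 and 0.28 in the KO libraries, against 0.05, -0.19 and 0.14 in the WT libraries, which did not overlap.

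Levels were also taken as a ratio to Cldn5 in the same library, since the claudin is largely endothelial. Cldn5 was the 1 gene of the 6 junction and adhesion proteins with a negative log2 fold change (-0.05), which raises the ratios in KO rats. The ratios given here hold for Cldn5 only. The Abcg2 to Cldn5 ratio was 0.461, 0.402 and 0.403 in KO rats, against 0.324, 0.223 and 0.320 in WT rats. The Slco1a2 to Cldn5 ratio was 1.08, 0.924 and 1.04 in KO rats, against 0.913, 0.769 and 0.812 in WT rats. With Cldn5 as the reference, both ratios kept the groups apart, but this depends on the reference. Pecam1 had 21.0 CPM in KO replicate 3 and 15.9 CPM in WT replicate 3. Abcg2 had 35.2 and 28.8 CPM in these libraries, and Slco1a2 had 90.5 and 73.1 CPM. Relative to Pecam1, both genes were therefore lower in KO replicate 3 than in WT replicate 3, and the groups overlapped. Other genes were not taken as the reference. The ratios of the other 3 pumps to Cldn5 overlapped between the groups. The Abcb1a to Cldn5 ratio was 0.726, 0.578 and 0.713 in KO rats, against 0.547, 0.422 and 0.588 in WT rats. The Abcc1 to Cldn5 ratio was 0.372, 0.297 and 0.265 in KO rats, against 0.255, 0.200 and 0.267 in WT rats. The Abcc4 to Cldn5 ratio was 0.187, 0.170 and 0.179 in KO rats, against 0.135, 0.137 and 0.181 in WT rats. In both, WT replicate 3 lay above at least 1 KO library. With 3 rats in each group, an exact permutation test cannot go below p = 0.1, so no such test was made on the ratios.

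Of 107 tested genes in 5 further lists of vessel and barrier genes, 5 (4.67%) were higher and 2 (1.87%) were lower in KO rats when judged by unadjusted p (below 0.05), and 0 passed the adjusted threshold. Both shares lie near or below those over all genes tested, 4.19% and 5.15%. Of 28 other barrier transporters, 2 amino acid carriers were higher, and the groups did not overlap for either. Slc7a1, for cationic amino acids, had 89.5, 94.4 and 90.2 CPM in KO rats, against 74.7, 79.7 and 81.2 CPM in WT rats (log2 fold change 0.22, SE 0.0679, edgeR adjusted p = 0.341). Slc38a2, for small neutral amino acids, had 181.8, 185.6 and 184.7 CPM in KO rats, against 145.3, 152.7 and 175.9 CPM in WT rats (log2 fold change 0.22, SE 0.0719, edgeR adjusted p = 0.365). Both are also expressed in neurons and glia. The further ABC transporters of that list, Abca1, Abcb1b, Abcc2, Abcc3 and Abcc5, had log2 fold changes of 0.06 to 0.22. None of them passed an unadjusted p of 0.05 in edgeR.

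Of 31 other endothelial genes, 1 was higher, the junctional adhesion molecule Jam2 (log2 fold change 0.20), and of 16 VEGF and angiopoietin ligands and co-receptors, 1 was higher, the peptide ligand Apln (0.20). Of 12 genes of the Wnt pathway, which builds and maintains the barrier, the transcription factor Lef1 was higher and Ctnnb1, which encodes its partner beta-catenin, was lower. Lef1 had 3.34, 4.21 and 5.85 CPM in KO rats, against 2.44, 2.26 and 3.87 CPM in WT rats, which overlapped (log2 fold change 0.63, SE 0.277, edgeR adjusted p = 0.507). Ctnnb1 had 304.0, 332.8 and 318.8 CPM in KO rats, against 373.9, 341.4 and 339.4 CPM in WT rats, which did not overlap (log2 fold change -0.14, SE 0.0632, edgeR adjusted p = 0.515). Of 20 other pericyte and smooth muscle genes, 1 was lower: Kcnj8, the pore subunit that pairs with the Abcc9 product, had 1.95, 1.55 and 2.19 CPM in KO rats, against 3.05, 3.20 and 3.13 CPM in WT rats. The groups did not overlap, and the log2 fold change was -0.74 (SE 0.258, edgeR adjusted p = 0.390), with 21 to 41 counts in a library.

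**Figure D4:**
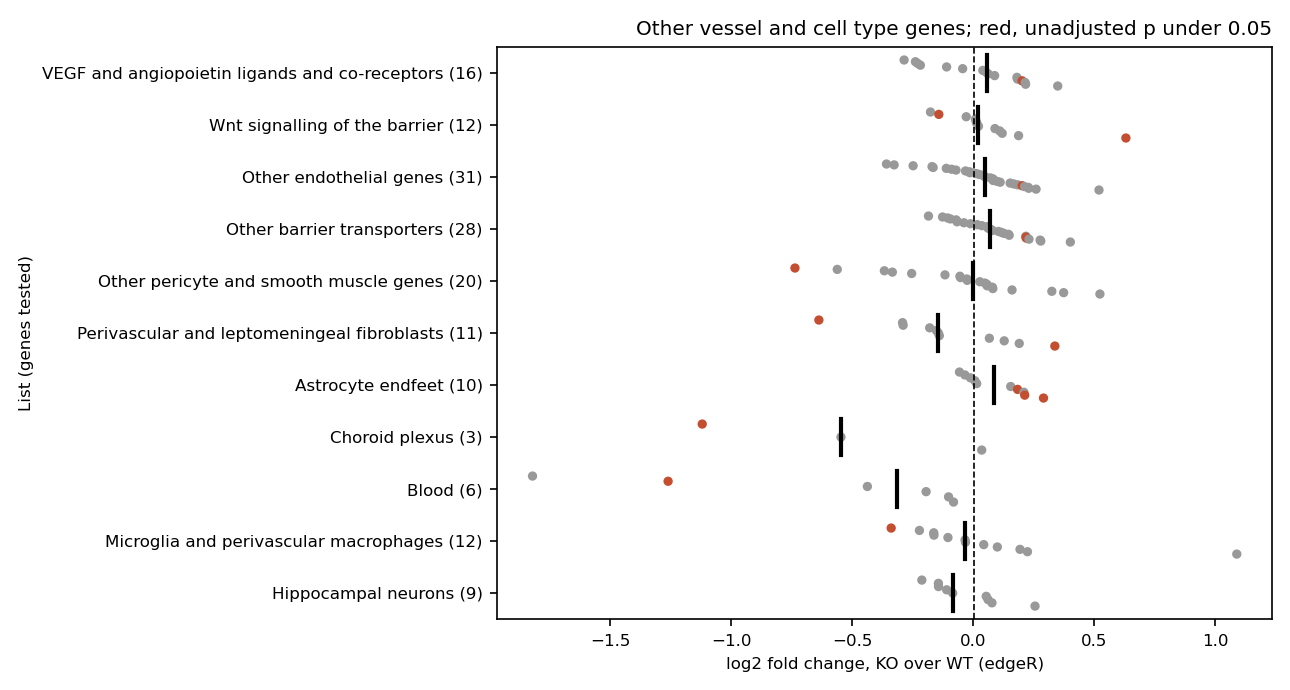
Log2 fold change (KO over WT, edgeR) of 158 genes in 11 further lists, 1 row for each list, with genes at an unadjusted p under 0.05 in red and a black bar at each list's median. In all, 9 red points lie above 0 and 6 below.

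Other cells of the tissue were read from 6 lists of their own, each summed over its genes in the table, tested or not. The counts below stand beside 4.19% of all genes tested that were higher by unadjusted p (below 0.05) and 5.15% that were lower. Of 10 astrocyte endfoot genes, 3 were higher in KO rats by unadjusted p and 0 were lower. They were the connexin Gjb6 (log2 fold change 0.29), the potassium channel Kcnj10 (0.21) and the water channel Aqp4 (0.18). The groups did not overlap for Gjb6 and Kcnj10, where 7.19% of all genes were higher without overlap. The list summed to 5343 to 5896 CPM in KO rats and 4762 to 5350 CPM in WT rats. The lowest KO sum (5343 CPM) lay just below the highest WT sum (5350 CPM), so the groups overlapped narrowly. Of 11 fibroblast genes, the proteoglycan Lum was higher (0.34) and the collagen Col1a1 was lower (-0.64), and the list summed to 245.0 to 285.5 CPM in KO rats and 248.2 to 327.5 CPM in WT rats.

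Blood left in the vessels was read from 8 globin and red cell genes, 6 of them tested, which summed to 59.6 to 77.9 CPM in KO rats and 56.1 to 130.5 CPM in WT rats. In this list 0 were higher and 1, Hba-a1, was lower (log2 fold change -1.26), and near-identical globin copies make the value of each uncertain. Of 12 microglia and macrophage genes, 1 was lower, Cx3cr1 (-0.34), with sums of 400.5 to 449.3 CPM in KO rats and 407.5 to 476.6 CPM in WT rats. Choroid plexus genes were near the floor, with Otx2 at 0 in every library and a sum over 11 genes of 9.17 to 16.2 CPM in KO rats and 16.3 to 21.2 CPM in WT rats. Ttr was lower in this list (log2 fold change -1.12). The choroid plexus sums did not overlap between the groups, although the highest KO sum and the lowest WT sum were close. Of 9 hippocampal neuron genes 0 passed in either direction, and their list summed to 2767 to 2972 CPM in KO rats and 2780 to 3222 CPM in WT rats. The part of these cells in the vessel results was not tested.

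**Figure D5:**
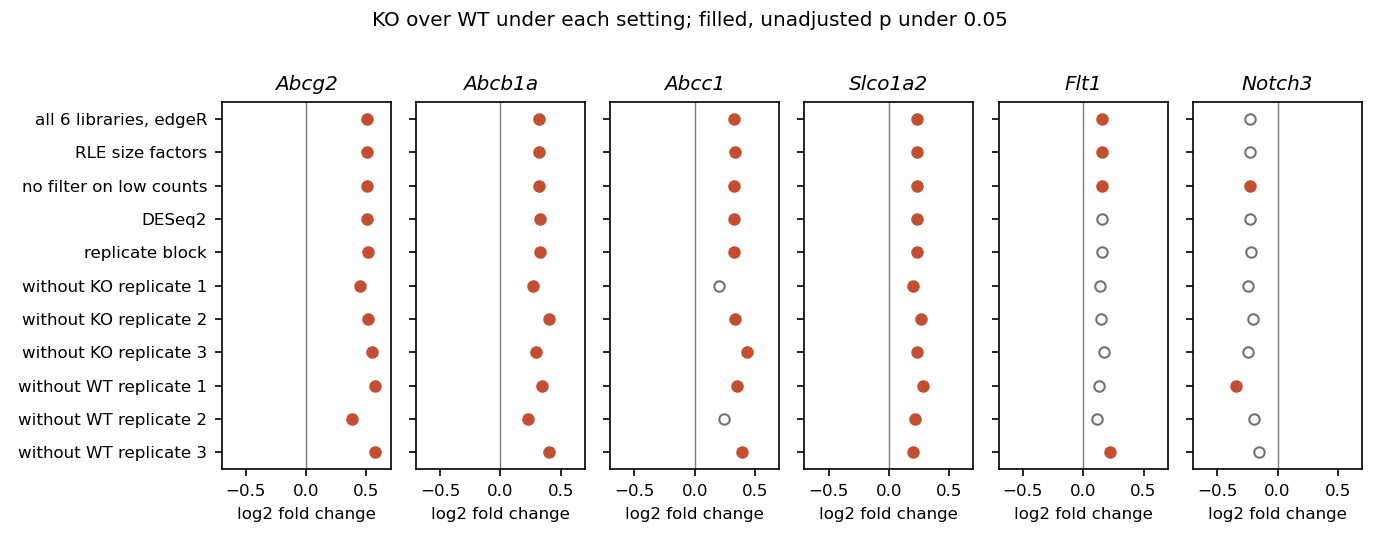
Log2 fold change (KO over WT) of 6 vessel genes under each analysis setting, filled where the unadjusted p is under 0.05. The values of Abcg2, Abcb1a and Slco1a2 stay above 0 in all 10 alternatives, within 0.38 to 0.57, 0.23 to 0.40 and 0.20 to 0.28.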

How the data were processed

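RNA-Seq was made from hippocampal total RNA of 3 KO and 3 WT rats. The authors prepared libraries with a kit that the paper names as NEBNext Ultra II Directional. They ran FastQC on the single-end reads, used HISAT2 with the rn6 genome, and obtained counts from htseq-count. Versions, annotation and the strand setting of htseq-count are not given in the sources used here. Whether reads of overlapping antisense genes were separated in the counting is therefore not known. The deposited counts are whole numbers per gene without normalization. Another deposited table holds the authors' DESeq2 comparison (mean level, fold change, error, statistic and p-values) and was not used. All 6 columns of counts had labels matching a sample.

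Genotypes were compared with edgeR 4.0.16 under R 4.3.3 (filterByExpr, minimum count 10, TMM, robust quasi-likelihood fit, genotype as the only term, two-sided, Benjamini-Hochberg over 11800 genes) after the code was tested on simulated data. The tables held 14479 genes with a count. The methods name DESeq2 at p under 0.05. DESeq2 1.42.0 was run as an alternative, beside RLE size factors, no filter, the replicate number as a block and leaving out each library. No 2 libraries were duplicates (chi-square per degree of freedom 3.605 to 9.111 within groups). P-values set the difference between genotypes against the spread among these 6 rats within a genotype. They do not cover a spread between litters.

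The 34 genes and the lists were chosen with earlier results of these data known. All 34 were named. Among the 34, values in every library are given for genes at an unadjusted p under 0.05 or with groups that do not overlap. They are also given for the most abundant gene of each role. From each other list, up to 4 genes at an unadjusted p under 0.05 were named. Of these, Slc7a1, Slc38a2, Lef1, Ctnnb1 and Kcnj8 were given in every library, and the rest by log2 fold change only. Cldn5, Abcc4, Notch3 and Abcb1b were given in every library after their values were seen, as was the choice of the GC box. RefSeq (GRCr8) was used for names and promoters, and 33 of the 34 symbols matched.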

Additional observations from a re-analysis of the deposited data

How the results depend on the processing

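Of the 340 values of single vessel genes under the 10 alternatives, 302 kept their direction and their side of an unadjusted p of 0.05, 22 turned direction, 7 came to pass and 9 no longer passed. Genes called at an adjusted p under 0.05 numbered 9 with no filter, 35 in DESeq2 and 17 with the replicate block, against 3 in the edgeR analysis, and 1 to 256 when a library was left out, with 256 without WT replicate 3, 1 without KO replicate 1, 11 without KO replicate 2 and 7 without WT replicate 1. Genes at an unadjusted p under 0.05 numbered 701 to 2095 when a library was left out. Among the 34, 1 passed the adjusted threshold in DESeq2 and 0 to 1 when a library was left out, 3 to 8 were then higher at an unadjusted p under 0.05 (8 without WT replicate 3), and 0 to 2 were lower (Notch3 and Slc7a5 without WT replicate 1). With no filter 1 was lower, Notch3. The groups did not overlap for 4 to 10 genes when a library was left out, which makes such separation easier. The shares over all genes were not taken for these separations or for the lower genes, so those counts have no background. Of the other lists, 14 to 39 genes passed when a library was left out.

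Slc2a1 turned positive with RLE size factors (0.00086) and in DESeq2 (0.0017). Direction also turned when a library was left out for Ocln (-0.076 to 0.19), Kdr (-0.19 to 0.035), Eng (-0.15 to 0.10), Vwf (-0.021 to 0.20), Sox17 (-0.12 to 0.14), Foxc1 (-0.20 to 0.10), Slc2a1 (-0.073 to 0.078), Rgs5 (-0.025 to 0.19), Abcc9 (-0.12 to 0.071) and Tagln (-0.22 to 0.083), and for the medians of the transcription factors (-0.15 to 0.11), the pericyte genes (-0.12 to 0.071) and the contractile genes (-0.22 to 0.083). The cause was not tested. The median of the 34 stayed between 0.03 and 0.14.

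No pairing of the rats by replicate number was seen. Same-numbered libraries correlated at 0.0278, -0.00883 and -0.0781 in their deviations from the group means, beside -0.0801 to 0.0825 for libraries of unlike number. With 3 rats in each group, these correlations cannot exclude a pairing. With the replicate block 4 vessel genes were higher at an unadjusted p under 0.05, beside 4.28% of all genes, and Flt1 missed it (edgeR, 0.0598). Depth limits Flt4 (20 to 35 counts) and Foxc1 (31 to 60 counts) most.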
